A study of Mus musculus with 14 samples.

Results

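The genes described here are the 10 catalytically active MAP kinase phosphatases of the mouse, Dusp1, Dusp2, Dusp4, Dusp5, Dusp6, Dusp7, Dusp8, Dusp9, Dusp10 and Dusp16. They were taken as the rows with these gene names in the tables of cortex and of hippocampus. All 10 were present in both tables, as 11 of 26348 coding-sequence rows and 10 of 20492 named genes, with 2 rows for Dusp16 and 1 for every other member. The family was chosen by the pooled FPKM of cortex, where Dusp8 was lower in the TRF2-depleted group, so the cortex values of the members are given as a description and support nothing.

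The study asks how far neurons need functional telomeres. Total RNA was sequenced from cortex and hippocampus of C57BL/6 mice aged 3 months, with 4 control and 3 TRF2-depleted samples of cortex and 3 control and 3 TRF2-depleted samples of hippocampus. TRF2, encoded by Terf2, shields chromosome ends. The design text names Dcx as the driver of the Cre recombinase that removes TRF2. Dcx is expressed in young neurons, so bulk tissue also holds cells outside that lineage. The other cohort is called wild type there, and the sources used here do not say whether it carried a Cre or an engineered allele. One more hippocampal condition stands in the deposited table under the name DKO. No sample label describes it, so its genotype and number of samples are not known here and it is called only by that name. One further TRF2-depleted sample has labels that name both tissues and was placed in no group. The authors pooled the values, so this sample could not be left out of them here. Whether it entered the TRF2-depleted value of cortex, of hippocampus or of neither is not known.

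MAP kinases carry signals from receptors, calcium entry and stress to the nucleus and are switched on by phosphorylation of a threonine and a tyrosine in their activation loop. MAP kinase phosphatases remove both phosphates. They fall into a nuclear class that is itself induced by MAP kinase signalling or by neuronal activity (Dusp1, Dusp2, Dusp4, Dusp5), a cytoplasmic class that acts mainly on the kinase ERK (Dusp6, Dusp7, Dusp9), and a class that prefers the stress-activated kinases JNK and p38 (Dusp8, Dusp10, Dusp16). In neurons the first class is commonly read as an early response to activity.

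The sequence that unites the members is the catalytic loop of the protein tyrosine phosphatase superfamily. It is shown to let the reader see how alike the genes are at the site that defines them. Each line gives the 24 coding bases of the loop, 5′ to 3′ on the coding strand, from the longest complete coding sequence of the gene in GENCODE M21 (build GRCm38, the same assembly as mm10). Capitals mark the codons of the histidine and the catalytic cysteine at the start and of the arginine at the end.
Dusp1: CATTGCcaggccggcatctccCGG
Dusp2: CACTGCcaagctggcatctctCGC
Dusp4: CACTGCcaggccggcatctccCGA
Dusp5: CACTGCgaagctggggtttccCGG
Dusp6: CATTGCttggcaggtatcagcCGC
Dusp7: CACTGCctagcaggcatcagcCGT
Dusp9: CACTGTctggcaggggtcagcCGC
Dusp8: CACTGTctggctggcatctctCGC
Dusp10: CACTGCcaggccggcgtgtccCGA
Dusp16: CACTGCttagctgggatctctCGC

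This signature was found in frame exactly 1 time in each of the 10 coding sequences. Of the 24 bases, Dusp2 shared 21 with Dusp8, Dusp16 shared 20 and Dusp5, the lowest, shared 15. In Dusp8 the loop lies at chr7:142083333-142083356 on the minus strand, in a coding exon. The coding sequences differed in length, with 663 codons in Dusp8 and 660 in Dusp16 against 318 in Dusp2 and 483 or fewer in all others.

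Values are FPKM, fragment counts scaled to the length of the coding sequence and to sequencing depth. Each condition has 1 value per row, which the authors pooled from its samples. No spread between samples can therefore be given for any level below, read depth is unknown, and the replicate error enters only through the authors' test. The q is that test's adjusted p, and a row is called at a q of 0.05 or less. Nothing ties the samples to separate animals, so its p may measure technical spread alone. Terf2 summed to 3.59 FPKM in control cortex against 0.202 FPKM after depletion, and to 2.01, 0.883 and 0.753 FPKM in control, TRF2-depleted and DKO hippocampus, from the authors' deposited table. As a check of the tissue labels, 10 genes of cortical projection neurons summed to 80.1 FPKM in control cortex and 46.3 FPKM in control hippocampus, and 11 genes of dentate granule neurons to 88.1 and 144 FPKM. Both tables were normalized separately, so levels set across tissues are side by side only.

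Dusp6 and Dusp7, the ERK phosphatases of the cytoplasm, were the most abundant members in both control tissues, and Dusp9 of the same class was the least. In control cortex the order of levels was Dusp6 (23.8 FPKM), Dusp7 (19.7 FPKM), Dusp1 (13.7 FPKM), Dusp8 (9.01 FPKM), Dusp4 (5.60 FPKM), Dusp5 (5.43 FPKM), Dusp16 (2.71 FPKM), Dusp10 (1.52 FPKM) and Dusp2 (0.385 FPKM), with Dusp9 listed at 0, in the authors' deposited table. In control hippocampus Dusp7 led with 19.3 FPKM, ahead of Dusp6 (16.2 FPKM), Dusp8 (13.6 FPKM), Dusp5 (8.14 FPKM), Dusp4 (5.94 FPKM), Dusp1 (4.87 FPKM), Dusp16 (2.52 FPKM), Dusp10 (1.03 FPKM) and Dusp2 (0.287 FPKM), and Dusp9 was again listed at 0 in the authors' deposited table. Whether neighbours in these orders differ cannot be said without values per sample. Dusp1 ranked 3 of 10 in control cortex and 6 of 10 in control hippocampus, and Dusp8 ranked 4 and 3.

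**Figure D1:**
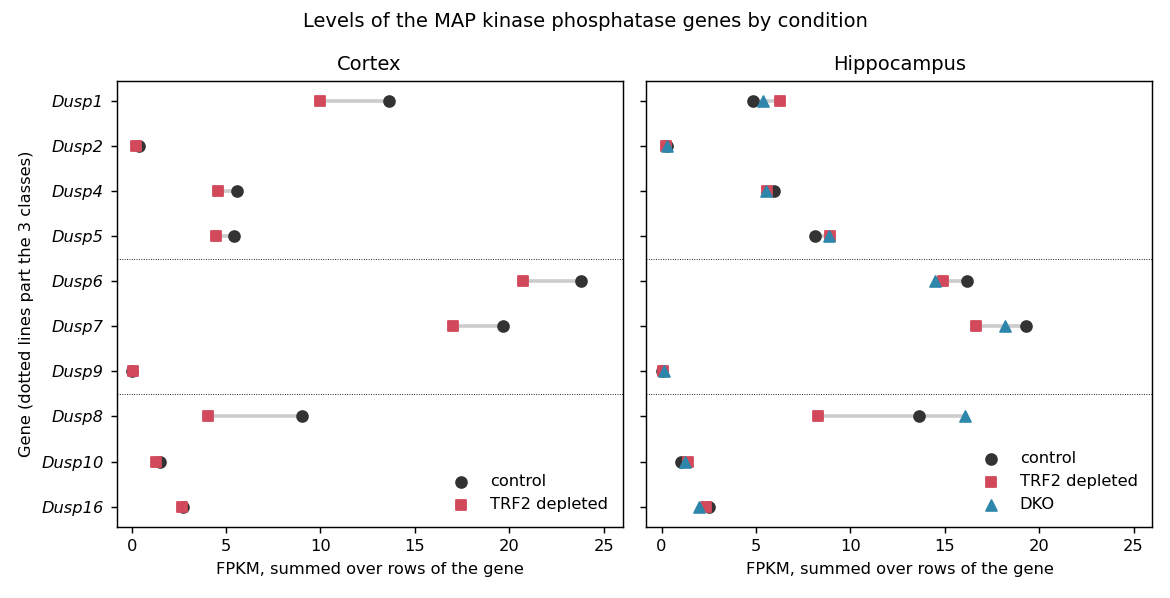
Pooled FPKM of each member, summed over its rows, in cortex (left) and hippocampus (right). Circles are control, squares TRF2-depleted and triangles DKO, a grey bar spans the conditions of 1 gene, and no error can be drawn. The Dusp8 bar reaches from 4.02 to 9.01 FPKM in cortex and from 8.28 to 16.1 FPKM in hippocampus.

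In cortex, 9 of 10 members were lower in the TRF2-depleted group than in control, and Dusp8 was the 1 member called. Dusp8, a phosphatase of JNK and p38 that is abundant in brain, is listed in the authors' deposited table with 9.01 FPKM for controls against 4.02 FPKM after TRF2 depletion, and so dropped by 55.3% (log2 ratio -1.16, p = 5e-05, Cuffdiff q = 0.00864). Adjusted within cortex alone its p was 0.0341, which also passed, and 0.147% of rows did. This p is the smallest deposited in cortex and was shared by 14 of 9536 rows, so it does not rank Dusp8 among them. The deposited statistic of Dusp8 was -2.04. The 12 rows within 0.1 of its size, Dusp8 included, had a median p of 0.000225 and a largest p of 0.0366 in the authors' deposited test. The row of Dusp8 spans chr7:142079483-142095805 (mm10) in cortex and chr7:142079485-142095284 in hippocampus, and the lncRNA gene Gm32786 overlaps the gene on the opposite strand. Among the 22 rows called lower in cortex, Dusp8 had the second lowest log2 ratio. Of all rows tested in cortex 0.304% were called, 29 of 9536, and 6 of the members' 11 rows were tested. At an unadjusted p under 0.05 there were 3 member rows, those of Dusp8, Dusp1 and Dusp4, where 6.24% of all tested rows lay. Of all genes reaching 1 FPKM in either cortex group, the share with the lower value after depletion was 55.2%, and of the members 8 reached it and 8 were lower.

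The nuclear, inducible class was lower in TRF2-depleted cortex at all 4 members, none of which was called. Dusp1, which acts on JNK, p38 and ERK and is induced within minutes of stimulation, came nearest, and the authors' deposited table lists it with 13.7 FPKM in controls against 9.97 FPKM (log2 ratio -0.45, p = 0.0007, Cuffdiff q = 0.0577). Only 31 of the 9536 tested rows had a smaller p. Dusp4, which acts on ERK and JNK in the nucleus, is listed by the authors' deposited table with 5.60 FPKM in controls against 4.55 FPKM (log2 ratio -0.30, Cuffdiff q = 0.456). Dusp5, a nuclear phosphatase that acts mainly on ERK, stood at 5.43 FPKM in controls against 4.44 FPKM, again by the authors' deposited table (log2 ratio -0.29, Cuffdiff q = 0.519). Dusp2, best known from activated lymphocytes, is marked as untested in the authors' deposited table, with 0.385 FPKM in controls against 0.218 FPKM. Summed over the class, FPKM was 25.1 in controls against 19.2 after depletion, a log2 ratio of -0.39.

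The cytoplasmic ERK phosphatases had log2 ratios nearer to 0 in cortex, and none was called. Dusp6, a feedback inhibitor that ERK signalling itself induces, is given by the authors' deposited table as 23.8 FPKM in controls against 20.7 FPKM (log2 ratio -0.20, Cuffdiff q = 0.499). Dusp7, its close relative, is given as 19.7 FPKM in controls against 17.0 FPKM by the authors' deposited table (log2 ratio -0.21, Cuffdiff q = 0.5001). Dusp9, known from placenta and liver, is listed at 0 and at 0.0904 FPKM in the authors' deposited table, and no fold is given.

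Within the JNK and p38 class the cortical difference lay mainly in Dusp8. The 3 genes summed to 13.2 FPKM in controls against 8.03 FPKM after depletion, while Dusp10 and Dusp16 together had 4.23 against 4.00 FPKM. Dusp10, which inactivates JNK and p38, is untested in the authors' deposited table, which lists 1.52 FPKM in controls against 1.31 FPKM. Dusp16, a JNK phosphatase that shuttles between nucleus and cytoplasm, was not tested either. Its 2 rows differed in sign, and the authors' deposited table lists them from 0.871 to 0.637 FPKM and from 1.84 to 2.05 FPKM, so that their sum had a log2 ratio of -0.01 and the larger row alone 0.16. The share of Dusp8 in the summed FPKM of all 10 members was 11.02% in controls against 6.19% after depletion.

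**Figure D2:**
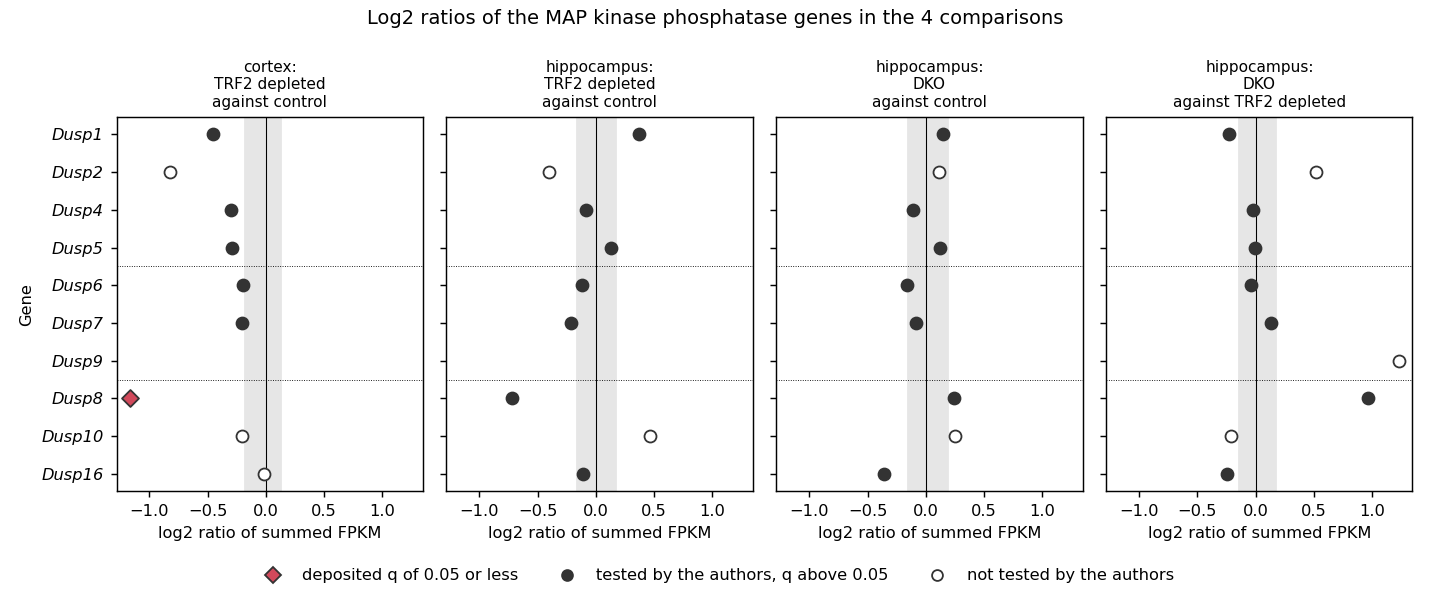
Log2 ratios of summed FPKM for each member in the 4 comparisons, second condition over first, with the diamond marking a deposited q of 0.05 or less, filled circles a gene with a tested row and open circles an untested gene. The grey band holds the middle of all genes with at least 1 FPKM, from the lower to the upper quartile. Dusp8 is the only diamond, at -1.16 in cortex, and lies at -0.72 in TRF2-depleted and 0.24 in DKO hippocampus against control.

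In hippocampus, which was not used to choose the family, no member passed in any of the 3 comparisons. The authors' deposited test called 0 of 7 tested member rows in TRF2-depleted against control, where 0.163% of all tested rows were called, and 0 member rows had an unadjusted p under 0.05 against 4.89% of all rows. For Dusp8 the authors' deposited table lists 13.6 FPKM in control hippocampus against 8.28 FPKM after depletion, a difference of -39.2% that did not pass (log2 ratio -0.72, p = 0.142, Cuffdiff q = 0.886). Among genes with at least 1 FPKM in 1 group 4.38% had a lower ratio, and the deposited statistic of Dusp8 was -0.88. Dusp7 reached a like statistic of -0.93 with a log2 ratio of -0.21 (19.3 and 16.7 FPKM, Cuffdiff q = 0.886) in the authors' deposited table. The log2 ratio of Dusp8 was thus 0.814 per unit of statistic, larger than in 90.2% of the 2018 tested rows whose mean FPKM lay within 0.5 log2 units of its own, where the median was 0.349. In cortex the same quantity was 0.571 and exceeded that of 65.7% of 2595 such rows.

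Dusp1 had opposite signs in the tissues. The authors' deposited table lists it with 4.87 FPKM in control hippocampus against 6.29 FPKM (log2 ratio 0.37, p = 0.0759, Cuffdiff q = 0.886), against -0.45 in cortex. It passed in neither tissue, and the difference between the tissues was not tested. Dusp10 also had the higher value in TRF2-depleted hippocampus, at 1.03 and 1.41 FPKM, and was not tested by the authors in their deposited table. Dusp5 had 8.14 and 8.90 FPKM (log2 ratio 0.13, Cuffdiff q = 0.912), Dusp4 5.94 and 5.60 FPKM (log2 ratio -0.08, Cuffdiff q = 0.947) and Dusp6 16.2 and 14.9 FPKM (log2 ratio -0.12, Cuffdiff q = 0.918) in the authors' deposited table. For Dusp16, the tested row had 2.25 and 1.86 FPKM (Cuffdiff q = 0.886) and the other 0.273 and 0.468 FPKM in the authors' deposited table. Dusp2 stood at 0.287 and 0.217 FPKM and Dusp9 at 0 and 0.0588 FPKM, both marked untested by the authors' deposited table. Of the 10 members 6 were lower and 4 higher. Among genes reaching 1 FPKM in either group, 5 of 8 members and 49.6% of all genes were lower.

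**Figure D3:**
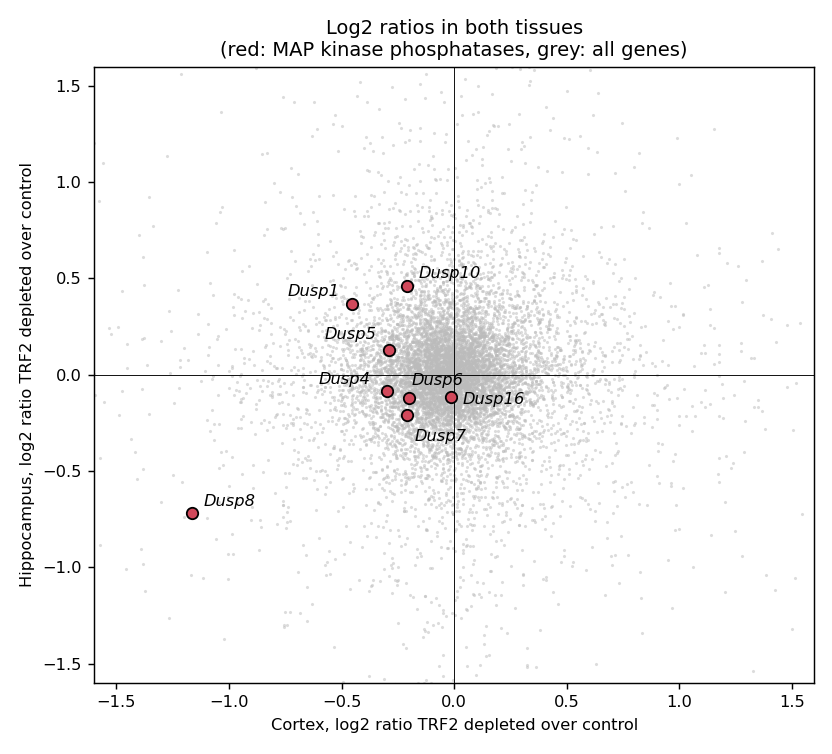
Log2 ratio of TRF2-depleted over control in cortex (horizontal) against hippocampus (vertical) for 10642 genes with at least 1 FPKM in 1 group of each tissue (grey) and the 8 members among them (red), with 363 genes outside the axes. Dusp8 lies at the lower left at -1.16 and -0.72, while Dusp1, Dusp5 and Dusp10 lie left of 0 in cortex and above 0 in hippocampus.

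Among genes with at least 1 FPKM in 1 group of each tissue, 26 of 10642 had ratios as low as those of Dusp8 in both tissues, Dusp8 included. The cortex ratio of Dusp8 chose the family, so the low count was partly set by that choice and supports nothing. Of the 8 members among the 10642 genes, 5 were lower in both tissues and 3 were lower in cortex and higher in hippocampus. The share of all genes that were lower in both was 27.9%.

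The DKO condition had the highest Dusp8 value in hippocampus. Dusp8 was at 16.1 FPKM there, against 13.6 FPKM in control and 8.28 FPKM in the TRF2-depleted group, in the authors' deposited table. Against control Dusp8 did not pass (log2 ratio 0.24, Cuffdiff q = 0.916 in the authors' deposited table). Against the TRF2-depleted group it did not pass either (log2 ratio 0.96, p = 0.0176, and Cuffdiff q = 0.757 in the authors' deposited table). Both DKO comparisons share samples with the comparison above. The deposited test called 0 of 7 tested member rows in each, where 0.181% and 0.154% of all tested rows were called. At an unadjusted p under 0.05 there was 1 member row against control, that of Dusp16, and 2 against the TRF2-depleted group, those of Dusp8 and Dusp16, while 6.71% and 4.79% of all rows lay there.

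The Dusp16 row in question was at 2.25 FPKM in control, 1.86 FPKM in TRF2-depleted and 1.05 FPKM in DKO hippocampus (DKO against control log2 ratio -1.09, p = 0.00335, Cuffdiff q = 0.426) in the authors' deposited table. Its other, untested row had 0.273, 0.468 and 0.908 FPKM in the same order in the authors' deposited table. Summed over both rows the gene had 2.52, 2.33 and 1.96 FPKM, a log2 ratio of -0.36 for DKO against control, so the summed difference was smaller than that of the tested row. An antisense gene, Gm36328, overlaps Dusp16.

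No other member had an unadjusted p under 0.05 in DKO. Dusp1 was at 5.38 FPKM, between its control and TRF2-depleted values, in the authors' deposited table (against control log2 ratio 0.14, Cuffdiff q = 0.918). Dusp6 had 14.5 FPKM (log2 ratio -0.16 against control, Cuffdiff q = 0.893), Dusp7 18.2 FPKM (-0.08, q = 0.922), Dusp4 5.51 FPKM (-0.11, q = 0.922) and Dusp5 8.87 FPKM (0.12, q = 0.911) in the authors' deposited table. The untested Dusp10, Dusp2 and Dusp9 had 1.22, 0.310 and 0.138 FPKM in the authors' deposited table. Summed FPKM of the JNK and p38 class was 17.2 in control, 12.02 in TRF2-depleted and 19.3 in DKO hippocampus. Of the summed FPKM of all members, Dusp8 made up 18.9% in control, 12.8% in TRF2-depleted and 22.3% in DKO. The other 9 members together had 58.3, 56.4 and 56.1 FPKM. Of all genes reaching 1 FPKM in either group, 47.9% were lower in DKO than in control and 47.8% lower than in the TRF2-depleted group. Of the 8 members reaching 1 FPKM, 4 and 6 were lower, and of all 10 members also 4 and 6.

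Of 107 genes for MAP kinases, their upstream kinases, scaffolds, other inhibitors and phosphatases, downstream kinases and target transcription factors, 70 were tested in cortex, 0 were called higher and 2 lower, where 0.304% of all tested rows were called. An unadjusted p under 0.05 was reached by 9 of the 70, 8 of them lower, where 6.24% of all rows lay. In the counts of listed genes here and below, 1 row was enough and gave the direction, so a gene with several rows had more chances than a single row. Of the 8, Map2k7 and Mapk9 had log2 ratios of 0.02 and -0.02 when summed over their rows. The 2 called genes were Map3k10, a kinase upstream of JNK (20.3 and 15.3 FPKM, log2 ratio -0.41, Cuffdiff q = 0.0498), and the AP-1 factor Jund (25.7 and 20.2 FPKM, log2 ratio -0.35, Cuffdiff q = 0.0437), in the authors' deposited table. Adjusted within cortex alone, the deposited p of Map3k10 was 0.181 and that of Jund 0.159, so neither passed. In hippocampus 0 of 78, 79 and 78 tested genes were called in TRF2-depleted against control, DKO against control and DKO against TRF2-depleted. The authors' deposited table gives 5, 6 and 7 of them an unadjusted p under 0.05. Of all tested rows 0.163%, 0.181% and 0.154% were called, and 4.89%, 6.71% and 4.79% had such a p. The median log2 ratio over listed genes with at least 1 FPKM in 1 group was -0.04 in cortex and -0.05 in TRF2-depleted hippocampus, next to -0.03 and 0.00 over all genes.

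The substrates of the family are the MAP kinases. Of 14 MAP kinase genes 10 were tested in cortex and 11 in hippocampus, with 0 called in each comparison. Of all tested rows 0.304% were called in cortex. In hippocampus 0.163% were called in TRF2-depleted against control, 0.181% in DKO against control and 0.154% in DKO against TRF2-depleted. A count of 0 among so few genes lies near these shares, here and in the lists that follow. Mapk9 and Mapk3, which encode a JNK and an ERK, had the smallest p in cortex. One of the rows of Mapk9 was at 18.7 and 11.04 FPKM (p = 0.0240, Cuffdiff q = 0.358) while the gene summed over rows had a log2 ratio of -0.02, and Mapk3 was at 22.6 and 19.2 FPKM (p = 0.0392, Cuffdiff q = 0.429), in the authors' deposited table. Sprouty and Spred genes, which restrain ERK upstream, stood at median log2 ratios of -0.17 in cortex and -0.29 in TRF2-depleted hippocampus, with 0 of 5 tested members called in either. Spry1 had the smallest p in hippocampus, at 2.89 and 1.76 FPKM (p = 0.0104, Cuffdiff q = 0.640) in the authors' deposited table. Of 15 atypical dual-specificity phosphatases, relatives of the family that lack the kinase-binding domain, 10 were tested in cortex and 11 in hippocampus, and 0 were called. Dusp26, a neuronal one, was at 17.0 and 13.6 FPKM in cortex (log2 ratio -0.32, p = 0.00565, Cuffdiff q = 0.185) in the authors' deposited table. In DKO against control hippocampus Dusp26, Map3k10 and Jund each had the higher value and did not pass. By the authors' deposited table Dusp26 was at 8.11 FPKM in control against 11.2 FPKM in DKO (log2 ratio 0.47, p = 0.00265, Cuffdiff q = 0.395). Map3k10 (log2 ratio 0.45, p = 0.0041, Cuffdiff q = 0.455) and Jund (log2 ratio 0.27, p = 0.0260, Cuffdiff q = 0.820) are the others in the authors' deposited table.

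**Figure D4:**
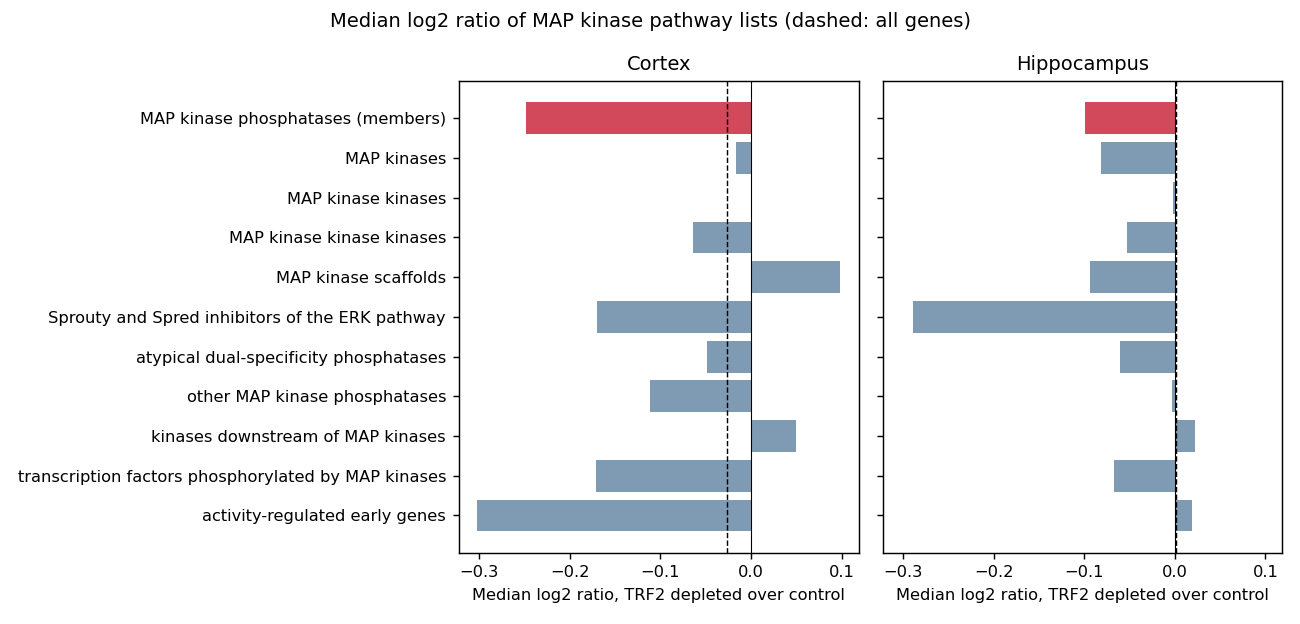
Median log2 ratio, TRF2-depleted over control, of the members (red) and of 10 lists of related genes (blue) in cortex (left) and hippocampus (right), over genes with at least 1 FPKM in 1 group, with the median of all genes dashed. In cortex the members stand at -0.25 and the activity-regulated early genes at -0.30, and in hippocampus at -0.10 and 0.02.

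Activity-regulated early genes, a list of 24 that holds no member, also had lower values in TRF2-depleted cortex. Of 21 tested 4 were called lower (Arc, Per1, Nptx2 and Jund, the last already counted above) and 0 higher, beside 0.304% of all tested rows called. Adjusted within cortex alone, Arc, Per1 and Nptx2 passed at 0.0341 each, and Jund did not at 0.159. In the TRF2-depleted group 21 of 24 had the lower value, beside 55.2% of all genes. An unadjusted p under 0.05 was reached by 15 of the 21 tested, 14 of them lower, beside 6.24% of all rows. Its median log2 ratio was -0.30, beside -0.25 for the 8 members with at least 1 FPKM in 1 group and -0.03 for all genes. In TRF2-depleted hippocampus the list had a median of 0.02 with 0 of 22 tested genes called, and 11 of 24 were lower. Markers of other cell types also differed between the cortex groups. Striatal neuron genes were higher in TRF2-depleted cortex at 10 of 10 genes with at least 1 FPKM, and all 12 in the table summed to 57.6 FPKM in controls against 76.4 FPKM, with Penk listed at 0 in the latter. Choroid plexus genes summed to 139.7 and 40.9 FPKM, with Kcne2 and Otx2 at 0 in TRF2-depleted cortex. Of these sums Ttr alone, the most abundant gene of the list, made up 93.3 and 1.15 FPKM, and without it they were 46.4 and 39.8 FPKM. Oligodendrocyte genes summed to 848 and 765 FPKM with 8 of 10 lower. Olfactory bulb genes summed to 0.828 and 7.48 FPKM, with S100a5, Tbx21 and Barhl2 listed at 0 in controls. Of these S100a5, at 3.07 FPKM after depletion, was called in the authors' deposited table (Cuffdiff q = 0.00864). The part of these in the Dusp8 and Dusp1 values was not tested. In bulk tissue fewer cells of a type and less RNA per cell cannot be told apart.

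In hippocampus the markers of dentate granule neurons were lower at 10 of 10 genes with 1 FPKM or more in the TRF2-depleted group. In DKO 10 of 10 were lower too, beside 49.6% and 47.9% of all genes in these comparisons against control. All 11 in the table summed to 144 FPKM in control, 87.7 FPKM in TRF2-depleted and 97.2 FPKM in DKO hippocampus, with Plk5 listed at 0 in control. Against control the deposited test called 6 of 9 tested genes of this list lower in TRF2-depleted and 4 of 9 in DKO, beside 0.163% and 0.181% of all tested rows. Choroid plexus genes summed to 319, 543 and 22.2 FPKM and meningeal fibroblast genes to 199, 314 and 323 FPKM in control, TRF2-depleted and DKO hippocampus, with 0 genes of either list at 0. Of the meningeal sums Ptgds alone made up 165, 265 and 283 FPKM in the authors' deposited table. It was the 1 meningeal gene called, of 7 tested, in both comparisons against control. Of 9 meningeal genes with at least 1 FPKM, 9 were higher in TRF2-depleted and 8 in DKO. An unadjusted p under 0.05 in the deposited test was reached by 7 of 7 and 4 of 7, with 0 of them lower. Of all tested rows 4.89% and 6.71% lay there. Of the choroid plexus genes 0 of 7 tested were called in TRF2-depleted and 3 of 6 lower in DKO, each against control. Among those with at least 1 FPKM, 9 of 9 were higher in TRF2-depleted and 8 of 8 lower in DKO. Without Ttr the choroid plexus sums were 55.5, 71.7 and 16.6 FPKM. Their part in the values of the members was not tested.

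The genes whose pattern lay nearest to that of Dusp8 are given as a description only. Over the 3 log2 ratios against control (TRF2-depleted cortex, TRF2-depleted and DKO hippocampus), and among 9663 genes with at least 1 FPKM in every condition, the nearest by Euclidean distance were Rpl30 (0.190), Puf60 (0.269), Mad2l1 (0.368), Hist1h3d (0.372) and Scaf1 (0.403). None of these was called in cortex in the authors' deposited table, where their smallest q values ran from 0.133 to 0.695. Dusp4 was the nearest other member at 1.13, with 956 genes nearer. The cortex ratio of Dusp8, which chose the family, is 1 of the 3, so the distance of the other members was partly set by that choice. The hippocampal ratios share their control samples, so this measure weights that group more.

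The promoters of Dusp8 and Dusp1 are shown because these genes had the smallest p in cortex. RefSeq (GRCm38.p6) gave promoter sequences for 8 of the 10 members, all but Dusp4 and Dusp9. Dusp4, the other member with an unadjusted p under 0.05 in the deposited test of cortex, could therefore not be searched. The stretches below lie before the start of the RefSeq transcript used. They run 5′ to 3′ on the strand of the gene towards its start and leave out annotated exons, at chr7:142095285-142095534 (minus strand) for Dusp8 and chr17:26508520-26508722 (minus strand) for Dusp1. In GENCODE M21 each stretch lies before the start of a shorter transcript of its gene and inside an intron of a longer one, which starts, on the minus strand, at position 142095843 for Dusp8 and 26562128 for Dusp1, and the Dusp8 stretch also falls inside the span of the row tested in cortex, so for the longer transcripts the stretches are not upstream of the start. Capitals mark matches on either strand to the cyclic AMP response element TGACGTCA, its core TGACG, which lies inside the full element, and the GC box GGGCGG.
Dusp8: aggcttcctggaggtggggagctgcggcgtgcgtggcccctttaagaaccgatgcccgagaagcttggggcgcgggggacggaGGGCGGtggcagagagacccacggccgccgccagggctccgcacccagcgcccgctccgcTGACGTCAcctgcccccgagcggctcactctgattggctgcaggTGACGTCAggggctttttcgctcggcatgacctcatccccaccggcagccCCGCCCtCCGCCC
Dusp1: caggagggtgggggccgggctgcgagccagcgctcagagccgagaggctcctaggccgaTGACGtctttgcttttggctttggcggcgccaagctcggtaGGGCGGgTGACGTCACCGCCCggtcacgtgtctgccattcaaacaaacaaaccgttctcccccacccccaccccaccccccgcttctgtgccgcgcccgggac

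In the 250 bases before the RefSeq start, Dusp8 held the full TGACGTCA at 2 places, 107 and 63 bases before the start, and Dusp1 held it at 1 place, 143 bases before. These were the 2 of 8 members with a match, and 1.55% of the 32851 promoters in the table have one in the same window. The core was present in 4 of 8 members, Dusp5 and Dusp16 being the others, and in 17.8% of all promoters. GC boxes were present in 6 of 8 members and 32.7% of all promoters. The CArG box of the serum response element was matched in Dusp5 alone, at 2 adjoining places, and in 1.47% of all promoters. The AP-1 site TGANTCA and the TATA box TATAAA were in 0 of 8 members and in 6.75% and 12.4% of all promoters. A match describes letters and not binding, and no binding was measured.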

How the data were processed

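Tools named in the submitters' processing notes are Cuffdiff, Cufflinks, TopHat2 and CASAVA 1.8, with build mm10. The sources used here give no settings, annotation or other versions. The authors deposited FPKM, with replicates pooled into 1 value per condition and coding-sequence row, and for each tested row a test statistic (a score), a p-value and a q-value, per the file headers. Rows not marked OK were treated as untested. FPKM were summed over the rows of a gene, log2 ratios were recomputed without a pseudocount, and medians cover genes with at least 1 FPKM in 1 group. For hippocampus, a Benjamini-Hochberg adjustment over its 33101 tested rows returned the deposited q to within 5.26e-07. For cortex it differed from them by up to 0.335, and over which tests those were adjusted is not known here. Adjusted within cortex, Dusp8 had 0.0341 and Dusp1 0.196.

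The members and lists were chosen with earlier results of these data known. Named were all members, Terf2, called members of the pathway lists or else up to 2 with the smallest p for lists described, and the 5 genes nearest to Dusp8. Listed genes with an unadjusted p under 0.05 in DKO against control were named too. Motifs were searched on both strands. Calculations ran in Python 3.11.15 with pandas 2.3.3, numpy 2.4.6, matplotlib 3.10.9 and scipy 1.17.1, and were checked on simulated data. Alternatives covered the q threshold and adjustment, minimum FPKM, pseudocount, centring and summing. Overlapping genes are named because strand-specific counting is not stated. Besides those of Dusp8 and Dusp16, AC137853.2 overlaps Dusp5 and 1700056E22Rik overlaps Dusp10. The annotated span of Dusp1 (chr17:26505590-26562128) overlaps 4 genes, Ergic1, Gm8225, AC122252.4 and AC122252.1. Its tested row is shorter (chr17:26505591-26508472), and whether these genes reach that row was not examined.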

Additional observations from a re-analysis of the deposited data

How the results depend on the processing

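No paired analysis was possible because the tables hold pooled values and carry no replicate numbers, and for the same reason no sample could be left out. The count of called members in cortex was 1, and 2 at a q of 0.1 (with Dusp1) and 3 at an unadjusted p under 0.05 (with Dusp1 and Dusp4). At a q of 0.01, adjusted within cortex or with a minimum of 1 FPKM it was again 1. In hippocampus it was 0 in all 3 comparisons at every q tried. At an unadjusted p under 0.05 it was 0 in TRF2-depleted against control, 1 in DKO against control and 2 in DKO against TRF2-depleted.

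The members' median log2 ratio in cortex was -0.25, and -0.22 with a pseudocount of 1 FPKM, -0.22 centred on all genes, -0.29 with no minimum FPKM and -0.21 without Dusp8. In TRF2-depleted hippocampus it was -0.10, and -0.0765 with a pseudocount of 1 FPKM, -0.11 with no minimum and -0.0847 without Dusp8. For DKO against control it was 0.02, and 0.00689 centred, 0.11 with no minimum and -0.0841 without Dusp8, so leaving out Dusp8 changes its sign. For DKO against TRF2-depleted it was -0.03, and -0.0438 centred, -0.0148 with no minimum and -0.0391 without Dusp8. Of the single log2 ratios under 4 alternatives each, 146 kept their sign and 2 reversed. Both were those of Dusp16 in cortex, at 0.16 in its larger row and 0.0141 when centred.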
